A study of Mus musculus with 2 samples.

Results

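Long noncoding RNAs are transcripts that are not translated into a stable protein. The 7 genes described here, Malat1, Neat1, Gm26917, Gas5, Snhg1, Snhg5 and Kcnq1ot1, were chosen by name from the 19537 genes listed for the series, with their levels in these libraries already known, so that all values below are a description and no test was made. They were measured in microglia, the macrophages that reside in the brain, which were sorted as CD11b+CD45int cells from PARK7/DJ-1 knock-out (KO) mice and their wildtype (WT) littermates. All mice were 3 to 4 months old and had received lipopolysaccharide (LPS), a molecule of bacterial cell walls that inflames the whole body, by intraperitoneal injection of 4 μg/g body weight 24 h earlier. The KO mice carried a gene-trap insertion in Park7 (B6;129P2-Park7Gt(XE726)Byg/Mmucd) and had been backcrossed to C57BL/6NCrl. Each genotype had 1 library, called KO LPS and WT LPS, and each library pooled 1 female and 1 male mouse, so that genotype cannot be told apart from library, batch or animal. No untreated library was used here.

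These RNAs work in different places of the cell. Malat1 sits in nuclear speckles, the bodies that store splicing factors, and Neat1 is the RNA scaffold of paraspeckles, a neighbouring type of nuclear body. Gas5, Snhg1 and Snhg5 are host genes of small nucleolar RNAs (snoRNAs): their introns hold snoRNAs, which guide the modification of ribosomal RNA, while the spliced transcript reaches the cytoplasm and can be lost by nonsense-mediated decay. Several such host genes, like the genes of ribosomal proteins, start at a run of pyrimidines (C or T), a feature through which growth signals control their translation. Kcnq1ot1 is an imprinted antisense RNA that is made from the paternal chromosome and silences neighbouring genes. Gm26917 is a noncoding gene model, whose role is not taken up here.

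In GRCm39 (GENCODE vM39), 3 of the 7 genes lie on chromosome 19. Malat1 (ENSMUSG00000092341.7) is at chr19:5845717-5853602 on the minus strand, and Neat1 (ENSMUSG00000092274.6) is at chr19:5874736-5897132 on the same strand, with 21133 bases between them. Snhg1 (ENSMUSG00000108414.4) is at chr19:8700319-8703812 on the plus strand, Gas5 (ENSMUSG00000053332.16) at chr1:160861793-160866118 on the plus strand and Snhg5 (ENSMUSG00000097195.13) at chr9:88377321-88405615 on the minus strand. Kcnq1ot1 (ENSMUSG00000101609.5) is at chr7:142731402-142850327 on the minus strand, inside Kcnq1 on the plus strand. Gm26917 is named only. Each of the other 6 overlaps a gene model on the opposite strand, such as Slc3a2 for Snhg1, and whether counting used the strand is not given in the sources used here, so that reads of such partners cannot be told apart.

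The starts of the 3 snoRNA host genes are shown because this class is known for pyrimidine runs there, and the start of Malat1 is shown for contrast. They come from RefSeq promoters (GRCm38.p6), read 5′ to 3′ on the gene's strand from 50 bases before to 50 bases after the annotated start. The capitals mark the longest run of C or T between 5 bases before and 20 bases after the start. The windows are chr1:161035116-161035215 (plus), chr19:8723437-8723536 (plus), chr9:88522848-88522947 (minus) and chr19:5802623-5802722 (minus).
Gas5: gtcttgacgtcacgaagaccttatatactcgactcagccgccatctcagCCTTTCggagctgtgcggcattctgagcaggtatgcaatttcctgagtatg
Snhg1: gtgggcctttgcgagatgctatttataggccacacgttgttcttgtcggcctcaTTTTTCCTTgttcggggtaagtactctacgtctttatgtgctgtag
Snhg5: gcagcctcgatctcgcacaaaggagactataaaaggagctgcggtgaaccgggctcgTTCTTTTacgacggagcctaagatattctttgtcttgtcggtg
Malat1: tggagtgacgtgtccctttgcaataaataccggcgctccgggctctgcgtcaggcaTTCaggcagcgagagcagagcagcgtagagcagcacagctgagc

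The run was 6 bases long in Gas5, 9 in Snhg1 and 7 in Snhg5, against 3 in Malat1 and 4 in Kcnq1ot1. A second annotated start of Gas5, upstream of the one shown, had a longest run of 3. A run of at least 6 was present in 22.3% of the 32851 RefSeq promoters, searched on the transcribed strand only, and in 11 of the 25 promoters of the 23 snoRNA host genes that had an entry, the 3 described here included. Counted from 1 at the annotated start, the run began at base 5 in Snhg1 and base 8 in Snhg5, and 1 base before the start in Gas5, so that it lay at the annotated start in Gas5 alone. The runs are a description of these letters and were not tied to any measurement.

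Drop-seq beads capture RNA through oligo(dT), so stretches of A matter for what the assay can see. The longest transcript of Malat1 has 7886 bases and a single run of at least 8 A, which is 12 A long (bases 7576 to 7587) and ends 299 bases before the 3′ end of the model. It is shown in capitals with the 40 bases on each side (bases 7536 to 7627).
Malat1 A-rich tract: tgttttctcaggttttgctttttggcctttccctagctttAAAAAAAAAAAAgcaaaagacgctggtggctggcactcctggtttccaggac
As background, this tract pairs with the U-rich stretches before it in a triple helix that protects the end of the mature RNA, and the tRNA-like mascRNA begins just after it. Neat1, in its longest transcript of 22397 bases, had no run of 8 A, and its longest run was 7. The longest transcript of Kcnq1ot1, with 93092 bases, had 30 such runs, the longest with 41 A. What these runs contributed to the counts was not tested.

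The values are counts of unique molecular identifiers (UMIs), each of which stands for 1 captured transcript molecule. Cells were barcodes with at least 500 UMIs and at least 100 genes: 320 of KO LPS, with a median of 963.5 UMIs, and 1427 of WT LPS, with a median of 1065. They held 381305 and 1989011 UMIs. Barcodes of 1 to 100 UMIs, called low barcodes below, mostly hold RNA that was free in the suspension or came from broken cells. KO LPS had 9069 of them and WT LPS 4267, with medians of 18 and 75 UMIs. Levels are given as CPM, which counts a gene's UMIs in 1e6 UMIs of the same barcodes, with 95% exact Poisson intervals that cover counting error only. No barcode was a cell in both libraries.

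The labels were checked on Park7, the targeted gene, which had 1 UMI in the cells of KO LPS (2.62 CPM) and 323 in those of WT LPS (162 CPM). All 17 microglia markers had UMIs in the cells of both libraries, and 12 of them were over 1.5-fold higher in KO LPS and 1 (C1qa) was lower, where 26.2% of all genes tested were higher and 25.8% lower. All 23 genes with at least 20 UMIs of an inflammatory response list were over 1.5-fold lower in KO LPS, with a median log2 ratio of -3.26. Among markers of other cells, the choroid plexus list summed to 2166 CPM for KO LPS and 15.6 CPM for WT LPS, with 7 of 8 genes above 0 in KO LPS and Clic6 at 0. The astrocyte list summed to 469 and 216 CPM, with Aqp4 at 0 in both. The neutrophil list was at 0 in KO LPS and at 70.9 CPM in WT LPS, where Ngp, Camp and Ltf were at 0. Their part in the values below was not tested.

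Of the 7 genes, 6 had a row and none of these was listed as missing in either library. Kcnq1ot1 had no row under this symbol or its synonyms, so that it has no value here. Rows of 4 partial gene models with its name in capitals (KCNQ1OT1_1, KCNQ1OT1_2, KCNQ1OT1_3 and KCNQ1OT1_5) were present, of which 3 were missing in KO LPS. KCNQ1OT1_3 had 1 UMI in the cells of KO LPS and 5 in those of WT LPS, and the others had at most 3 UMIs. Such counts are too low to compare.

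In cells, 5 of the 6 measured genes were over 1.5-fold lower in KO LPS than in WT LPS and none was higher. Over all 9085 genes with at least 20 UMIs, 25.8% were lower by this fold and 26.2% were higher, and the median log2 ratio was 0.03 (with 0.5 added to each count). With cells of at least 1000 UMIs the count was 4, since Neat1, at a log2 ratio of -0.57, no longer passed. Gm26917 differed most and Malat1 least. The median log2 ratio of the 6 genes was -1.79. Since there was 1 library per genotype and the genes were picked with these values known, the count is given as a description.

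Malat1 was the gene with the most UMIs in the cells of both libraries (not scaled by length, as counting is at 3′ ends). Its 17170 UMIs of KO LPS made 45030 CPM (44359 to 45708), and its 81928 UMIs of WT LPS made 41190 CPM (40909 to 41473). This made 4.50% and 4.12% of all UMIs of cells, ahead of the mitochondrial ribosomal RNA mt-Rnr2 with 2.95% and 4.06%. The KO LPS level was 1.09-fold that of WT LPS (1.08 to 1.11), a difference above counting error but small.

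Malat1 was higher outside cells than in them. Low barcodes held 60788 CPM in the KO LPS library and 78224 CPM in that of WT LPS, so that the level in cells was 0.741-fold (0.724 to 0.758) and 0.527-fold (0.519 to 0.534) that of low barcodes. Here the order of the libraries turned. All 6 measured genes had a log2 ratio below 0 in low barcodes, and 3 of them (Gm26917, Snhg5 and Snhg1) were over 1.5-fold lower in KO LPS and none higher, beside 20.4% lower and 28.3% higher of 4168 genes. For Malat1, KO LPS was at 0.777-fold WT LPS (0.760 to 0.794) in low barcodes and at 0.731-fold (0.711 to 0.751) in barcodes of 101 to 499 UMIs. In both libraries the level fell with each step in depth. In KO LPS it went from 55601 CPM at 101 to 499 UMIs over 50449 CPM at 500 to 999 and 45024 CPM at 1000 to 1999 to 37824 CPM from 2000 UMIs on. In WT LPS the same steps were 76090, 51923, 42031 and 33660 CPM. The sign of the small difference in cells therefore depends on which barcodes are compared: at 500 to 999 UMIs, just inside the limit for cells, the intervals of KO LPS (49217 to 51703 CPM) and WT LPS (51280 to 52572 CPM) overlapped, and from 1000 UMIs on KO LPS was the higher library.

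**Figure D1:**
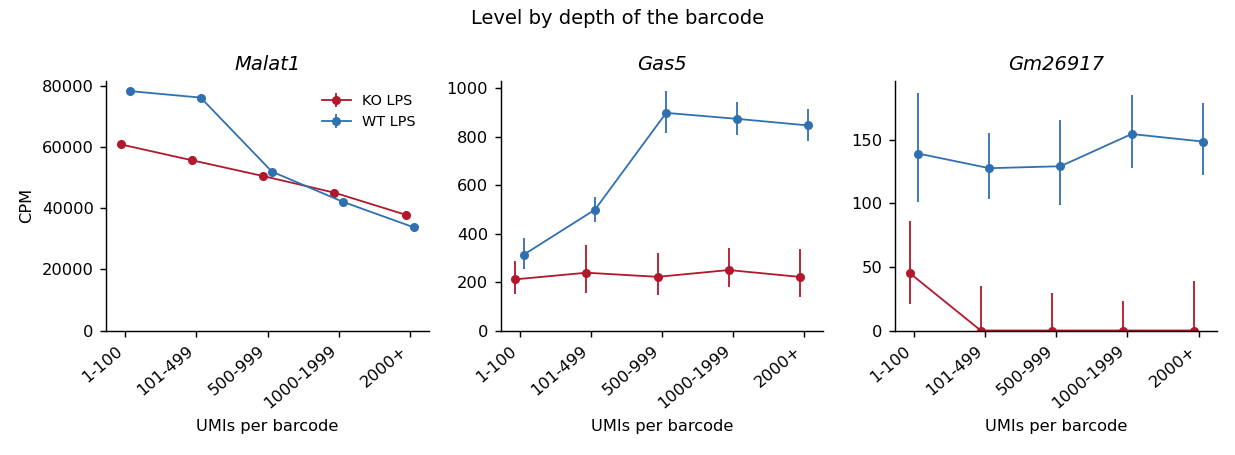
Levels of Malat1, Gas5 and Gm26917 (CPM, linear axes from 0) in barcodes grouped by their total UMIs, for KO LPS (red) and WT LPS (blue), with exact Poisson intervals of 95% as bars. Malat1 falls with depth in both libraries, Gas5 in WT LPS is at 314 CPM in low barcodes and between 847 and 899 CPM from 500 UMIs on while it stays between 211 and 250 CPM in KO LPS, and Gm26917 is at 0 in KO LPS from 101 UMIs on.

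Every cell held a Malat1 UMI, which droplets of 500 UMIs filled from low barcodes would too (100% expected in both libraries), so that this is not read as expression by each cell. Its share of a cell's UMIs had a median of 4.34% over the 320 cells of KO LPS, from 0.159% to 12.6%, and a median of 4.0% over the 1427 cells of WT LPS, from 0.177% to 15.6%. The distributions overlap almost fully. With each cell thinned to 500 UMIs, the variance of its count was 4.36 times the mean in KO LPS and 6.15 times in WT LPS, so that cells differed by more than the sampling of UMIs gives, for which this ratio is 1.

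**Figure D2:**
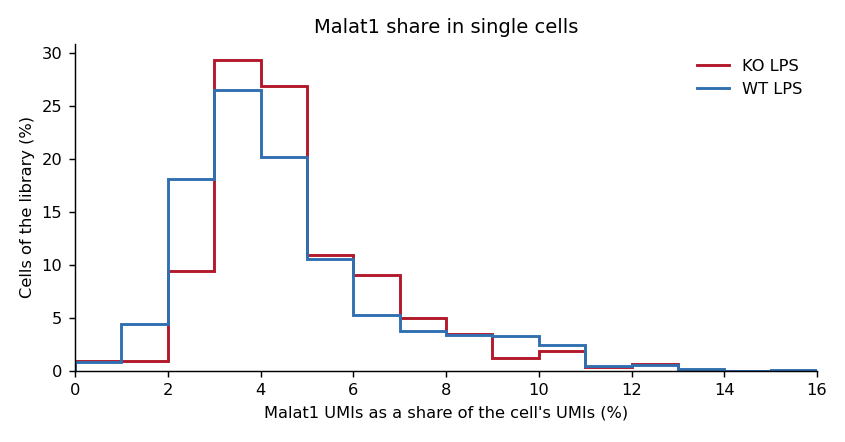
Share of each cell's UMIs that came from Malat1 (percent, in steps of 1) against the percentage of the library's cells, for the 320 cells of KO LPS (red) and the 1427 cells of WT LPS (blue). Both libraries peak between 3% and 4% and overlap over nearly their whole range.

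Which other genes varied with Malat1 over cells was described by Spearman's rho over the thinned cells, where all points of 1 library share its preparation and the counts of a cell sum to the same total. Among 553 genes, the highest values were those of Gm26924, a gene model (rho 0.25 in KO LPS and 0.34 in WT LPS), Zeb2, a transcription factor of microglia (0.19 and 0.21), Rbm25, a splicing factor of nuclear speckles (0.19 and 0.20), Zfp292 (0.16 and 0.17) and Luc7l3, another splicing factor (0.17 and 0.15). The lowest were those of Cst3, a secreted protease inhibitor that is abundant in microglia (-0.50 and -0.48), Tmsb4x, which binds actin monomers (-0.30 and -0.36), and Actb, cytoplasmic actin (-0.29 and -0.46).

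Summed lists were described in the same way. The summed counts of nuclear speckle proteins had a rho with Malat1 of 0.27 in KO LPS and 0.38 in WT LPS, while those of ribosomal protein genes had -0.41 and -0.54 and those of microglia markers -0.32 and -0.44. Mitochondrially encoded transcripts had 0.08 and 0.23, and the inflammatory response list, which had few UMIs in KO LPS, had 0.00 and -0.26. The snoRNA host genes other than those described here had -0.18 and -0.19. The total UMIs of the cell before thinning had -0.19 and -0.27. Gm26924 itself was higher in low barcodes than in cells, at 6205 against 1626 CPM for KO LPS and 5568 against 1247 CPM for WT LPS, as Malat1 was. Cst3 was higher in cells, at 24629 against 17195 CPM and 16485 against 5606 CPM. How far free RNA and depth take part in these correlations was not tested. The corresponding values of Gas5 and Neat1 were all within 0.15 of 0, which at their counts is no finding.

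Neat1 had far fewer UMIs than Malat1. Its transcripts were not told apart, so that these counts are of the gene and not of the paraspeckle scaffold as such. Neat1 had 49 UMIs in the cells of KO LPS, or 129 CPM (95.1 to 170), and 470 in those of WT LPS, or 236 CPM (215 to 259), and the intervals do not overlap. KO LPS was thus at 0.544-fold WT LPS (0.397 to 0.731). In low barcodes its levels were 136 CPM (89.5 to 198) and 187 CPM (142 to 241), which overlap, with a ratio of 0.727 (0.443 to 1.16). Cells did not stand apart from low barcodes, at 0.946-fold (0.580 to 1.57) in KO LPS and 1.26-fold (0.963 to 1.69) in WT LPS.

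Genes that encode proteins of the nuclear bodies showed no common direction. Of 16 paraspeckle protein genes, 2 were higher and 2 lower in KO LPS by over 1.5-fold, with a median log2 ratio of -0.03, where 26.2% of all genes were higher and 25.8% lower. Those with at least 50 UMIs were Fam98a (ratio 0.301, 0.135 to 0.586), Dazap1 (0.526, 0.255 to 0.980) and Hnrnph3 (1.88, 1.21 to 2.84), all RNA-binding proteins. The other was Rbm12, on 10 and 26 UMIs, named after its values were seen. Of 19 nuclear speckle protein genes, 1 was higher and none lower, again with a median of -0.03. That gene was Clk1, a kinase that phosphorylates splicing factors, at 438 against 289 CPM. Of 6 genes with at least 20 UMIs next to Malat1 and Neat1 on chromosome 19, 1 was higher (Sipa1, at 233 against 152 CPM), with a median of 0.02.

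Gm26917 was present in WT LPS and at 0 in the cells of KO LPS. WT LPS had 291 UMIs in cells, or 146 CPM (130 to 164), spread over 217 cells, of which the highest held 7. KO LPS had 0 UMIs in 320 cells, where 3 counts would be 7.87 CPM, so that it was at least 18.6-fold lower by this floor, and the exact interval of the ratio reached up to 0.0665. Of the 1356 genes with at least as many UMIs in WT LPS cells, 6 were at 0 in KO LPS cells. The other 5, which are named after their values were seen, were Saa3, Lcn2, Ccl5, Il1r2 and Cd72, of which Saa3, Lcn2, Ccl5 and Il1r2 are known as inducible genes of inflammation.

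The gene was not missing from the KO LPS library as a whole. It had 9 UMIs in low barcodes, or 45.3 CPM (20.7 to 86.0), against 44 UMIs in those of WT LPS, or 139 CPM (101 to 187). The 9 UMIs lay 1 each in 9 barcodes of 11 to 55 UMIs, none of which occurred in WT LPS. In barcodes of 101 to 499 UMIs, the gene was at 0 for KO LPS and at 97 UMIs (128 CPM) for WT LPS. Within KO LPS, cells were at 0 relative to the low barcodes, with an interval up to 0.264-fold, whereas in WT LPS cells were at 1.05-fold the low barcodes (0.763 to 1.48), without a difference beyond counting error.

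Gas5 was the one measured gene that lay over 1.5-fold above the low barcodes of its library, in the cells of WT LPS. Its 89 UMIs in KO LPS cells made 233 CPM (187 to 287) and its 1730 UMIs in WT LPS cells made 870 CPM (829 to 912), a ratio of 0.268 (0.214 to 0.332). In low barcodes the levels were 211 CPM (152 to 286) and 314 CPM (255 to 382), with a ratio of 0.674 (0.458 to 0.976). Cells of WT LPS were at 2.77-fold their low barcodes (2.26 to 3.43), while cells of KO LPS were at 1.10-fold (0.757 to 1.63). The 3 lower of the 4 levels were those of KO LPS cells and of both sets of low barcodes, and among them KO LPS cells and KO LPS low barcodes did not differ beyond their intervals. Split by depth, Gas5 had 239 CPM (155 to 352) in KO LPS and 499 CPM (450 to 552) in WT LPS at 101 to 499 UMIs, below the limit for cells. At 500 to 999 UMIs the levels were 222 CPM (147 to 320) and 899 CPM (816 to 988), and at 1000 to 1999 UMIs they were 249.8 CPM (178 to 340) and 874 CPM (808 to 944). From 2000 UMIs on they were 221 CPM (137 to 338) and 847 CPM (783 to 915), so that the intervals of the libraries were apart in each of these steps.

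Snhg1 and Snhg5 were lower in KO LPS too, on few counts. Snhg1 had 9 UMIs in KO LPS cells, or 23.6 CPM (10.8 to 44.8), and 160 in WT LPS cells, or 80.4 CPM (68.5 to 93.9), a ratio of 0.293 (0.132 to 0.571). Its low barcodes had 35.2 and 60.2 CPM, with intervals that overlap. Snhg5 had 9 UMIs, or 23.6 CPM, against 295 UMIs, or 148 CPM (132 to 166), a ratio of 0.159 (0.0721 to 0.306). Its low barcodes had 70.4 and 139 CPM, so that in KO LPS cells were at 0.335-fold the low barcodes (0.128 to 0.831) and in WT LPS at 1.06-fold (0.773 to 1.5).

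**Figure D3:**
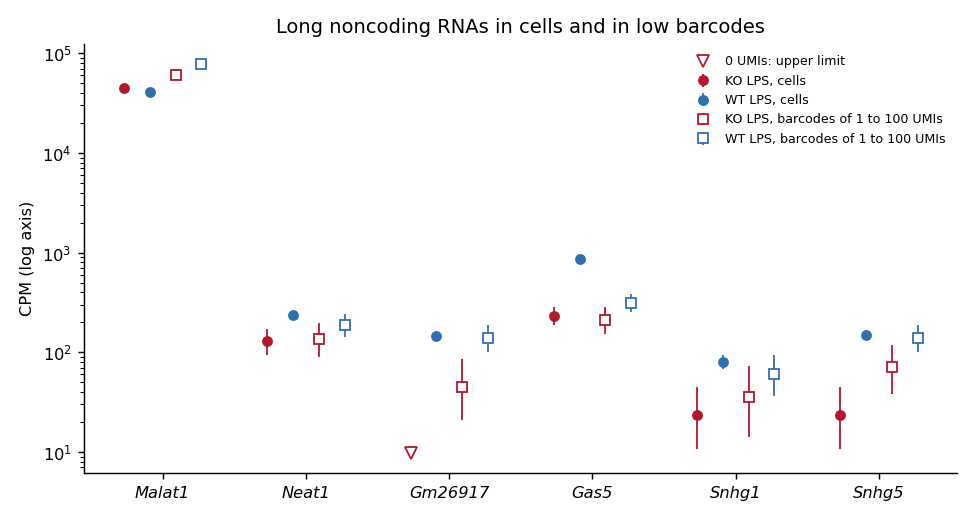
Levels (CPM, log axis) of the 6 measured genes in cells (filled circles) and in barcodes of 1 to 100 UMIs (open squares) of KO LPS (red) and WT LPS (blue), with exact Poisson intervals of 95% as bars and an open triangle at the upper limit where the count is 0. Malat1 is highest in the low barcodes of both libraries, Gas5 is highest in the cells of WT LPS at 870 CPM, and Gm26917 has 0 UMIs in the cells of KO LPS.

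Against the low barcodes of their own library, 3 of the 6 genes were over 1.5-fold lower in the cells of KO LPS (Gm26917, Snhg5 and Snhg1) and none was higher. Over the 5083 genes with at least 20 UMIs in that comparison, 8.48% were lower and 20.9% higher. Gm26917, with 0 UMIs in cells and 9 in low barcodes, and Snhg1, with 9 and 7, do not reach these 20 UMIs. Of the 3, Snhg5 alone does, with 9 and 14, so that the count of 3 is not like for like with these shares. Among cells with no Xist UMI, Gm26917 alone passed: Snhg5 was at a log2 ratio of -0.09 there, against -1.55 over all cells and -2.99 in cells with such a UMI, and Snhg1 was at -0.24, against -0.60. Snhg1 also fell short with cells of at least 1000 UMIs (-0.57) and with no minimum of UMIs (-0.52), which left 2 genes. The interval of Snhg1 in KO LPS, with a ratio of 0.670 (0.222 to 2.12), includes 1, and it passed this fold only with 0.5 added to each count. In WT LPS, 1 gene was lower (Malat1) and 1 higher (Gas5), beside 11% lower and 35.1% higher of 8830 genes. Against low barcodes of 1 to 50 UMIs, Snhg1 was also lower in WT LPS cells, at a log2 ratio of -1.11 in place of 0.39. This rests on few counts, as Snhg1 had 19 UMIs in all low barcodes of WT LPS, whose median was 75 UMIs.

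The share of cells with at least 1 UMI was compared after each cell had been thinned to 500 UMIs, which left out no cell, and beside the share that droplets of 500 UMIs filled from the low barcodes alone would reach. For Gas5 it was 10% (6.94 to 13.8, exact Clopper-Pearson) in KO LPS, where 10.03% was expected from low barcodes, and 33.7% (31.3 to 36.2) in WT LPS, where 14.5% was expected. The unthinned shares were 22.8% and 56.9%. Gas5 in WT LPS is thus the one case, of 10 for the 5 genes other than Malat1, in which the share stood above the background of its library.

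Neat1 was in 6.25% of thinned cells of KO LPS (expected 6.57%) and 10.02% of WT LPS (expected 8.92%), and Snhg1 in 1.25% (expected 1.75%) and 3.71% (expected 2.96%), so that each interval included the expected share. Snhg5 was in 0.938% of KO LPS cells (0.194 to 2.72), below the expected 3.46%, and in 5.82% of WT LPS cells (4.66 to 7.16), where 6.73% was expected. Gm26917 was in 0 of 320 cells of KO LPS, which allows a share of up to 0.938% by the count of 3 (exact interval up to 1.15%), where 2.24% was expected from 9 UMIs of low barcodes, and in 5.68% of WT LPS cells (4.53 to 7.01), where 6.73% was expected. Without thinning the shares of Neat1 were 11.6% and 22.3%, those of Snhg1 2.50% and 9.32%, those of Snhg5 2.19% and 15.9% and those of Gm26917 0% and 15.2%. A share at its background is not read as expression by the cell, and the limit for Gm26917 is on cells with a UMI at this depth, not on cells that carry the transcript. No cell type that lacks these RNAs was at hand, and the low barcodes stand in its place.

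**Figure D4:**
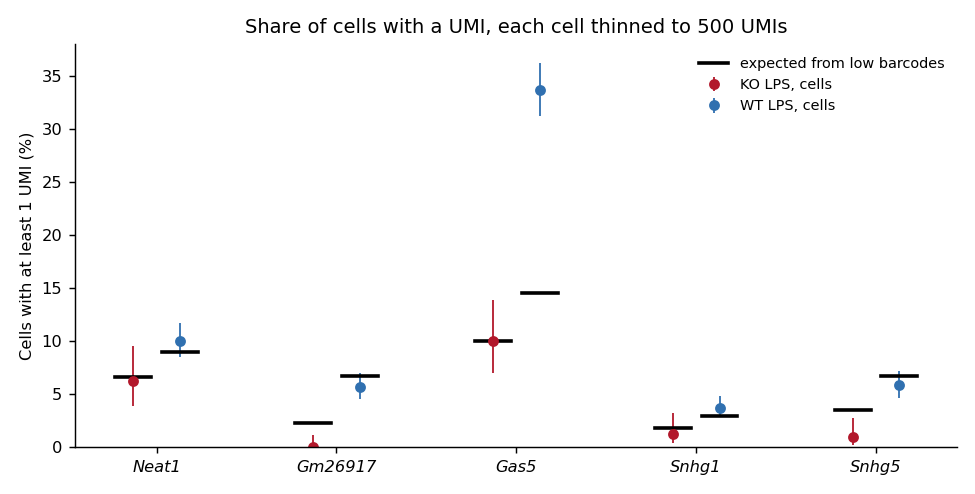
Percentage of cells with at least 1 UMI of each gene after thinning every cell to 500 UMIs, for KO LPS (red) and WT LPS (blue), with exact Clopper-Pearson intervals of 95% as bars and the share expected of droplets filled from low barcodes as black lines. Gas5 in WT LPS, at 33.7%, lies above its line at 14.5%, and no other interval lies above its line.

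Over cells, the counts of the scarcer genes were spread nearly as sampling gives. With 500 UMIs per cell the variance over the mean of Neat1 was 1.19 for KO LPS against 1.20 for WT LPS, and that of Gas5 was 1.07 and 1.19, where genes of similar mean had medians of 1.10, 1.09, 1.13 and 1.16. The 3 cells with most Gas5 UMIs held 2.37% of all Gas5 UMIs in WT LPS cells and 11.2% in KO LPS cells. In KO LPS the 9 UMIs of Snhg5 lay in 7 cells and those of Snhg1 in 8 cells, so that no single cell made up either level. The 3 cells with most UMIs held 55.6% of those of Snhg5 and 44.4% of those of Snhg1.

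The libraries also differed in their share of cells with a UMI of Xist, the RNA of the inactive X chromosome of females, with 65.3% in KO LPS and 45.2% in WT LPS. After thinning to 500 UMIs the shares were 49.7% (44.1 to 55.3) and 27.96% (25.6 to 30.4), below the 60.9% and 40.8% expected of droplets filled from low barcodes, where Xist was at 1877 and 1048 CPM. Both shares lie below that background, though the level in KO LPS cells, 2106 CPM, was above that of low barcodes. In WT LPS cells it was 803 CPM, below them. The shares alone thus do not tell whether an Xist UMI came from the cell. The paper told female from male cells by high or low Xist. The split below, at 1 UMI, is not taken as a split by animal. Within cells with such a UMI, the ratio of KO LPS to WT LPS was 0.241 (0.184 to 0.311) for Gas5, and within cells without it 0.309 (0.200 to 0.456). For Neat1 the ratios were 0.538 and 0.479, for Snhg1 0.278 and 0.336, and for Gm26917 KO LPS was at 0 in both. The values for Snhg5 moved most, at 0.0435 (0.00522 to 0.159) with and 0.511 (0.201 to 1.09) without an Xist UMI, on 2 and 7 UMIs of KO LPS. For Malat1 they were 1.14 and 1.01. All 5 lower genes thus stayed lower in either set of cells, with intervals that reach above 1 for Snhg1 and Snhg5 in cells without an Xist UMI.

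Other snoRNA host genes were lower in KO LPS too, as Gas5, Snhg1 and Snhg5 were. Of 13 further host genes with at least 20 UMIs, 10 were over 1.5-fold lower in KO LPS, none was higher, and all 13 had a log2 ratio below 0, with a median of -0.92, beside 25.8% lower over all genes. The largest differences among those with at least 50 UMIs were in Nop56, a core protein of snoRNA particles, at 100 against 427 CPM (ratio 0.233, 0.164 to 0.323), Snhg12 (0.323, 0.116 to 0.728), Snhg6 (0.337, 0.120 to 0.761) and Snhg3 (0.375, 0.183 to 0.690). In a set chosen by symbol after these values were seen, the 76 ribosomal protein genes, 60 were lower by this fold and none was higher, with a median of -1.0 and sums of 12971 against 25492 CPM. The 3 genes described here were thus among the lower of the hosts, with log2 ratios of -1.89 for Gas5, -1.70 for Snhg1 and -2.58 for Snhg5.

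Other noncoding RNA genes went both ways. Of 16 on a list of mostly long noncoding RNAs, 6 were over 1.5-fold higher in KO LPS and 7 lower, with a median log2 ratio of -0.27, beside 26.2% higher and 25.8% lower over all genes. The largest differences among those with at least 50 UMIs were in 1700020I14Rik (ratio 2.65, 2.07 to 3.37), Xist (2.62, 2.41 to 2.86), Pvt1, a noncoding neighbour of Myc (0.342, 0.0903 to 0.921), and Mir22hg, the host of miR-22 (0.401, 0.143 to 0.913). The level of Xist was 2106 CPM for KO LPS against 803 CPM for WT LPS. Of the 4 genes with at least 20 UMIs around Kcnq1ot1 in its imprinted region, 1 was lower and none higher. The lower gene was Tspan32, on 3 and 34 UMIs. Below this filter, Cdkn1c was higher on 6 and 3 UMIs, with a ratio of 10.4 (2.23 to 64.5). Both are named after their values were seen.

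**Figure D5:**
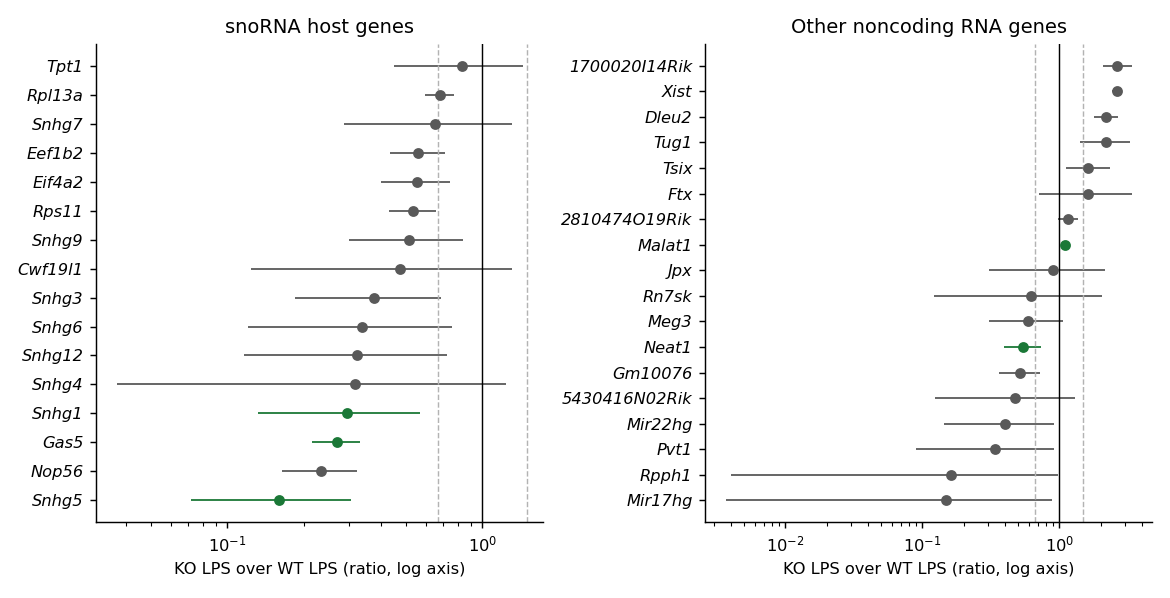
Ratio of KO LPS to WT LPS in cells (log axis) for snoRNA host genes (left) and other noncoding RNA genes (right) with at least 20 UMIs, with exact conditional binomial intervals of 95% as bars, a solid line at 1 and dashed lines at 1.5-fold in each direction. Gas5, Snhg1, Snhg5, Malat1 and Neat1 are in green. All snoRNA host genes lie below 1, from 0.159 for Snhg5 to 0.832 for Tpt1, while the other noncoding RNA genes lie on both sides.

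The genes whose levels over the 4 profiles (cells and low barcodes of each library) were most like those of each RNA were found among 5017 genes with at least 100 UMIs, as the Euclidean distance of centred log2 levels. For Malat1 these included Dclre1c and Ankrd26 (distance 0.067 and 0.093) and for Neat1 they were Ccdc34, Txnl1 and Cers2 (0.049 to 0.077). For Gas5 they were Lyz2, Cd14 and Tceb2 (0.17 to 0.22). Lyz2, for instance, had 168 CPM in KO LPS cells, 156 CPM in KO LPS low barcodes, 553 CPM in WT LPS cells and 212 CPM in WT LPS low barcodes.

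Snhg1 was nearest to Rnf169, 1600014C10Rik and Trim30b (0.12 to 0.24), and Snhg5 to Heatr1, B230307C23Rik and Rcan1 (0.34 to 0.49). No gene was close to Gm26917, for which the nearest were Irak3, Xdh and Zbp1 at distances of 1.89 to 1.94. These too were at 0 in KO LPS cells, but each had 5.03 CPM in KO LPS low barcodes, against 45.3 CPM for Gm26917. With 4 profiles of 2 libraries, the distances describe these libraries alone.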

How the data were processed

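Microglia of 1 library per genotype were measured by Drop-seq. The authors deposited raw UMI counts of each gene in each barcode for 9999 barcodes per library, without normalisation, totalling 684738 UMIs (KO LPS) and 3063795 UMIs (WT LPS). Per the labels, bcl2fastq 2.0, STAR and the builds mm9 and mm10 were named without their roles. Missing values (5616 and 3036 genes) were read as 0. The members and gene lists were chosen with earlier results of these data known, and genes were named by a rule: the members, up to 4 genes past 1.5-fold with at least 50 UMIs for each list of noncoding, host and nuclear body genes that is described, the 5 highest and 3 lowest correlations with Malat1, the 3 nearest genes of each member, of which 1 is not reported here, and Park7.

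Cells were barcodes with at least 500 UMIs and 100 genes. The study called cells with DropletUtils instead and tested with MAST over cells, which was not run since cells of 1 library are not replicates. Doublets were left in and no clusters were made. UMIs were summed per library (Python 3.11.15, numpy 2.4.6, scipy 1.17.1). Intervals (95%) were exact Poisson for levels, conditional binomial for ratios and Clopper-Pearson for shares. A count of 0 was set to a floor of 3 counts per library for fold bounds. The calculations were tested on simulated data. The alternatives varied the limits for cells and low barcodes, the scaling, the gene filter, the thinning and the split by Xist. No column of another sample was present. 11 barcodes occurred in both libraries, of which 1 was a cell in either.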

Additional observations from a re-analysis of the deposited data

How the results depend on the processing

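No paired analysis was possible because each genotype had 1 library, and for the same reason no library could be left out. Of 70 recomputed counts, 63 stayed within 1.5 times their value. The number of the described genes over 1.5-fold from low barcodes in KO LPS, 3, was 1 among cells with no Xist UMI, where Snhg5 (-0.09, from -1.55) and Snhg1 (-0.24, from -0.60) fell short, and 2 with at least 1000 UMIs per cell or no minimum of UMIs, where Snhg1 (-0.57 and -0.52) fell short. With all genes of at least 1 UMI, genes past 1.5-fold numbered 10040 between the libraries (4719 in the main count; 6907 higher and 3133 lower in KO LPS), 7806 between cells and low barcodes in KO LPS (1492) and 8683 in WT LPS (4069). With at least 100 UMIs they numbered 2141, 130 and 1784. The main counts of all genes took genes with at least 20 UMIs. In KO LPS, Gm26917 (0 UMIs in cells and 9 in low barcodes) and Snhg1 (9 and 7) do not reach this minimum. The count of 3 described genes in KO LPS is thus not like for like with the 1492. No described gene past 1.5-fold in the main values changed direction. Snhg1 in WT LPS went from 0.39 to -1.11 (log2, cells over low barcodes) with low barcodes of 1 to 50 UMIs, which raised that count from 2 to 3. That change rests on few counts. With at least 1000 UMIs per cell, Neat1 at -0.57 fell short of 1.5-fold and the count between libraries went from 5 to 4. Over 9 alternatives the log2 ratio of KO LPS to WT LPS stayed between -2.04 and -1.67 for Gas5, -1.0 and -0.57 for Neat1, -1.97 and -1.36 for Snhg1 and -4.21 and -0.88 for Snhg5. That of Malat1 went from -0.02, with all barcodes of at least 100 genes, to 0.18. Under the other scalings the median of all genes moved by less than 0.1. The 320 cells of KO LPS limit precision, since 3 counts there equal 7.87 CPM, against 1.51 CPM in WT LPS.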

Other observations

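A gene model outside the comparisons above, Gm10800, named after its values were seen, had 199 CPM in the cells of KO LPS (76 UMIs) and 3.02 CPM in those of WT LPS (6 UMIs), a ratio of 66.1 (29.0 to 186). In low barcodes it had 4036 and 34.8 CPM. Its companion model Gm10801 had 31.5 and 1.01 CPM in cells and 1137 and 19 CPM in low barcodes. Both were thus far higher in low barcodes than in cells in KO LPS and, on few counts, in WT LPS too, the opposite of Cst3.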
